A study of Mus musculus with 4 samples.

Results

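Il17a, Il17f, Il22, Il17re, Il23r, Il1r1 and Ccr6 were followed in 4 single-cell RNA libraries of sorted lung immune cells. These 7 genes, of 31053 in the files, are 3 cytokines and 4 receptors of type 17 lymphocytes. They were chosen by name, and the cut of at least 1 UMI (unique molecular identifier, 1 counted RNA molecule) of Il17a or Il17f that defines an IL-17 cell below was chosen on the same counts with earlier results of these libraries known. The levels of Il17a and Il17f and the number of IL-17 cells are therefore given as a description. Of 25831 cells kept, 189 were IL-17 cells, against 213 of 28805 deposited barcodes. Just inside the cut lay 100 cells with exactly 1 UMI, and the other 89 held 2 or more.

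All mice were C57BL/6 and carried floxed Ift20 alleles. WT mice were Ift20 f/f without a Cre, and KO mice were Ift20 f/f CD4 cre, in which Cre is driven by Cd4 regulatory elements and acts in thymocytes that make CD4. T cells with a gamma-delta receptor mostly do not pass through that stage. Papain, a cysteine protease that serves as an inhaled allergen, was given into the nose at 25 µg on 3 days in a row and again on day 14, and lungs were taken on day 15, whereas control mice received DPBS, a buffered saline. Per the study's methods the mice were young males, and per the labels live CD45.2+ cells were sorted. Each of the 4 groups, named by treatment and genotype (DPBS WT and so on), was 1 library, with no statement of how many mice it holds. A difference between libraries has no replicate check, no test between groups was run, and the 95% intervals below are exact and cover counting error only. UMIs of the cytokines came in bursts from single cells, which such intervals do not cover.

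Sets of 4 values below run from DPBS WT through DPBS KO and Papain WT to Papain KO. The libraries kept 7559, 5421, 7424 and 5427 cells in that order, with median depths of 5827 to 6678 UMIs per cell. A count of 0 in a library allows a share of cells with a UMI of up to 0.0397% to 0.0553%, which does not limit the share of cells that express the gene. The libraries shared 65 barcode sequences, and 0 of the IL-17 cells had one of them. Cells were assigned to classes by their own UMIs. A T cell needed a CD3 chain UMI, a gamma-delta T cell a Trdc UMI with no Cd4, Cd8a or Cd8b1 UMI, and a CD4 T cell a Cd4 UMI with no Trdc, Cd8a or Cd8b1 UMI. The gates held 793, 478, 991 and 581 CD4 cells and 72, 55, 73 and 61 gamma-delta cells. Of all CD4 cells, 92.9% had a Trac UMI and 1.06% a Tcrg-C1 UMI. The gamma-delta gate was less clean: 47.1% of its cells had a Trac UMI, 41.8% a Tcrg-C1 UMI and 8.81% a UMI of Ncr1, a natural killer cell gene. Trdc was also found in 36.5% of the cells classed as natural killer cells. How many cells of other lineages the gamma-delta gate holds was not tested.

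Type 17 lymphocytes are CD4 helper cells (Th17), gamma-delta T cells and innate lymphoid cells. They release IL-17A and IL-17F, which act as homodimers or as a heterodimer on epithelium and stroma to draw in neutrophils, and IL-22, which acts on epithelial barriers. IL-23 and IL-1 act on them through IL23R and IL1R1 and raise cytokine output. IL17RE is a receptor chain for IL-17C, and CCR6, the receptor for the chemokine CCL20, guides type 17 cells as well as B cells. In the lung, gamma-delta T cells are a rapid source of IL-17A, whereas Th17 cells arise after priming.

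Il17a (ENSMUSG00000025929) lies on the plus strand at chr1:20730905-20734496 and Il17f (ENSMUSG00000041872) on the minus strand at chr1:20777146-20790617 of GRCm38, in the GENCODE M21 annotation. The 3′ ends of these neighbours face each other across 42649 bases. Il1r1 (ENSMUSG00000026072) is on the same chromosome at chr1:40225080-40317257. Il23r (ENSMUSG00000049093) is at chr6:67422932-67491855, Il17re (ENSMUSG00000043088) at chr6:113458484-113470758, Il22 (ENSMUSG00000074695) at chr10:118204942-118210047 and Ccr6 (ENSMUSG00000040899) at chr17:8236043-8257141.

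The 200 bases before the RefSeq start of Il17a, Il17f, Il23r and Ccr6 are shown because these windows, of the 7, hold the same nuclear receptor motif. They run 5′ to 3′ on the strand of the gene (GRCm38.p6, RefSeq). Capitals mark AGGTCA or its reverse complement TGACCT, a core motif that many nuclear receptors bind.
Il17a, chr1:20730705-20730904, plus strand: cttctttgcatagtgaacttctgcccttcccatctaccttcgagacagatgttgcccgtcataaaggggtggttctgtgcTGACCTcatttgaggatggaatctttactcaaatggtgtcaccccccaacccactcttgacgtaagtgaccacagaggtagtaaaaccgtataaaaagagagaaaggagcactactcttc
Il17f, chr1:20784271-20784470, minus strand: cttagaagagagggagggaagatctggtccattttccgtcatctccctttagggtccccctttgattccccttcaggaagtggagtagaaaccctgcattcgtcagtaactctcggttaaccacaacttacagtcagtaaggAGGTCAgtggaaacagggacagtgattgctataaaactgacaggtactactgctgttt
Il23r, chr6:67491856-67492055, minus strand: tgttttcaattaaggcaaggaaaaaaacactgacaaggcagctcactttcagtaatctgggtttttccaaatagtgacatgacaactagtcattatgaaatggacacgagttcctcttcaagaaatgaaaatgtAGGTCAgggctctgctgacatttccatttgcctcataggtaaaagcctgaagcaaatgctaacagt
Ccr6, chr17:8235843-8236042, plus strand: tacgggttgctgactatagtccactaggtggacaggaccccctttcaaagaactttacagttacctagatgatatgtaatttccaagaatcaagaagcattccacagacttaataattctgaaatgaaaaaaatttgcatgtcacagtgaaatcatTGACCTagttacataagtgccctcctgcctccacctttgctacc
The match began 120, 58, 66 and 44 bases before the start of Il17a, Il17f, Il23r and Ccr6. On either strand, AGGTCA was found in these 4 of the 7 members and in 11.4% of 32851 promoters of the same length. TATAAA, the TATA box, began 31 bases before the start in Il17a and 29 in Il17f, was 170 bases before that of Il22, whose window is not shown, and was found in these 3 of the 7 members and in 9.96% of all promoters. The other motifs searched were TTCNNNGAA, bound by STAT factors and held by 5.49% of promoters, and TGANTCA, bound by AP-1 and held by 5.48%. TTCNNNGAA began 157 and 120 bases before the start of Ccr6, and TGANTCA was in 0 of the 7 windows. No matches overlapped in the windows shown. A match is a description of letters and not evidence of binding.

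Il17a and Il17f were highest in the papain libraries of both genotypes. Il17a had 109 UMIs in 16 cells of DPBS WT, 107 in 13 cells of DPBS KO, 608 in 44 cells of Papain WT and 312 in 33 cells of Papain KO. Its CPM (counts per 1000000 UMIs of the library, not divided by gene length) was 1.64 (1.34 to 1.97), 2.07 (1.69 to 2.50), 9.28 (8.56 to 10.0) and 6.33 (5.64 to 7.07). Both papain libraries lay above both DPBS libraries. A single cell held 66 of the 109 UMIs in DPBS WT and 150 of the 608 in Papain WT.

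Il17f was counted less often than Il17a and in a similar number of cells. It had 24 UMIs in 16 cells, 35 in 22, 264 in 53 and 125 in 31 cells of the same libraries. Its CPM was 0.360 (0.231 to 0.536), 0.676 (0.471 to 0.940), 4.03 (3.56 to 4.55) and 2.53 (2.11 to 3.02). Over all cells the log2 ratio of papain to DPBS was 2.50 (2.21 to 2.81) in WT and 1.61 (1.29 to 1.94) in KO for Il17a, and 3.48 (2.88 to 4.15) and 1.91 (1.36 to 2.49) for Il17f. The log2 ratio of KO to WT after papain was -0.55 (-0.75 to -0.35) for Il17a and -0.67 (-0.99 to -0.36) for Il17f. The Il17a value turned on how cells were weighted: as the mean of the CPM of each cell it was 0.05, and the share of cells with an Il17a UMI was 0.593% in Papain WT and 0.608% in Papain KO.

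IL-17 cells numbered 27, 32, 78 and 52, or 0.357% (0.236 to 0.519), 0.590% (0.404 to 0.832), 1.05% (0.831 to 1.31) and 0.958% (0.716 to 1.25) of the cells. The log2 ratio of this share between papain and DPBS was 1.56 (0.91 to 2.25) for WT mice and 0.70 (0.04 to 1.38) for KO mice. Between KO and WT it was 0.72 (-0.06 to 1.52) after DPBS and -0.13 (-0.67 to 0.39) after papain, and both of these intervals include 0.

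CD4 T cells were 5, 3, 34 and 16 of the IL-17 cells, gamma-delta T cells 7, 4, 6 and 5, other T cells 9, 15, 19 and 23, and cells outside the T gate 6, 10, 19 and 8. CD4 cells thus made up 18.5% (6.30 to 38.1) and 9.38% (1.98 to 25.0) of the IL-17 cells of DPBS WT and DPBS KO, and 43.6% (32.4 to 55.3) and 30.8% (18.7 to 45.1) after papain. Gamma-delta cells made up 25.9% (11.1 to 46.3), 12.5% (3.51 to 29.0), 7.69% (2.88 to 16.0) and 9.62% (3.20 to 21.0). Of the 66 other T cells, 23 had Trac but no co-receptor UMI, 21 were CD8 cells and 22 had UMIs of several lineages or of none. Exactly 1 Il17a or Il17f UMI was held by 11, 16 and 11 of these. Only 5 of 3370 CD8 cells (0.148%) had 2 or more. A CD4 cell whose Cd4 RNA was missed falls among these other T cells, as does a T cell that makes neither co-receptor. How many of each they hold was not tested. With T cells that had Trac and neither Trdc nor Cd8 UMIs counted as CD4, the CD4 share was 40.7% in DPBS WT and 46.2% in Papain KO. The gate for gamma-delta cells also set their share in Papain KO, which was 21.2% when any T cell with a Trdc UMI counted, whatever its Cd4 and Cd8 UMIs.

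**Figure D1:**
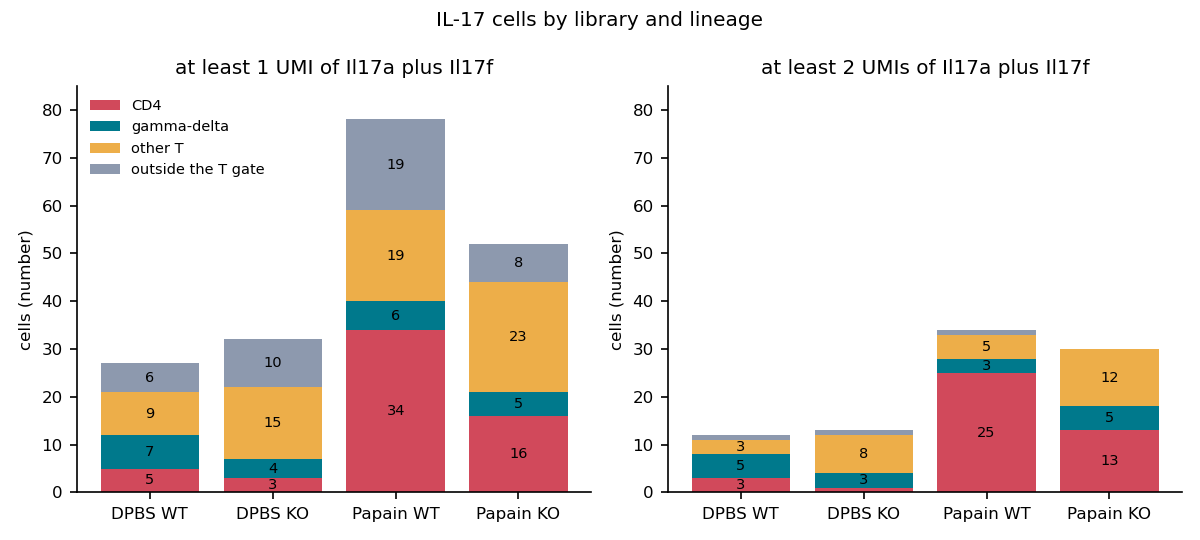
Number of IL-17 cells (y axis) in each library (x axis), stacked by lineage, for cells with at least 1 UMI (left) and at least 2 UMIs (right) of Il17a plus Il17f; the numbers stand in the segments. CD4 cells rise from 5 and 3 to 34 and 16 with papain while gamma-delta cells stay between 4 and 7, and most cells outside the T gate are absent from the right panel.

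Most cells outside the T gate carried a single UMI. Of 43 such cells 40 had exactly 1, and of the 89 cells with 2 or more UMIs 86 were T cells. A single UMI can be free RNA captured with another cell. B cells, taken here as a class that lacks both genes, had a UMI in 0.0895% (2 of 2234), 0.137% (2 of 1455), 0.480% (10 of 2082) and 0.115% (2 of 1732) of cells, at median depths of 3889 to 4779 UMIs. Phagocytes had one in 0.149%, 0.455%, 0.316% and 0.271% of cells, at median depths of 13146 to 15997. These shares set the background for single UMIs. Of the 3 cells outside the T gate with 2 UMIs, 1 met the markers of type 2 innate lymphoid cells (ILC2), in Papain WT.

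Of CD4, gamma-delta, CD8, B cells and phagocytes, gamma-delta cells had the highest share of IL-17 cells in every library, and the share of CD4 cells was higher after papain in both genotypes. The share of gamma-delta cells with an Il17a or Il17f UMI was 9.72% (4.0 to 19.0), 7.27% (2.02 to 17.6), 8.22% (3.08 to 17) and 8.20% (2.72 to 18.1). The share of CD4 cells was 0.631% (0.205 to 1.47), 0.628% (0.130 to 1.82), 3.43% (2.39 to 4.76) and 2.75% (1.58 to 4.43). Median depths of the gamma-delta cells were 5545, 5826, 5805 and 6946 UMIs, and those of the CD4 cells 5576 to 6722. With each cell thinned to 2000 UMIs the gamma-delta shares were 5.56%, 3.85%, 5.48% and 6.56%, the CD4 shares 0.379%, 0.211%, 2.23% and 1.89%, and the B cell shares 0 to 0.196%.

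In CD4 cells the log2 ratio of papain to DPBS was 2.44 (1.08 to 4.16) in WT and 2.13 (0.33 to 4.55) in KO. In gamma-delta cells it was -0.24 (-2.09 to 1.55) and 0.17 (-2.04 to 2.51). Between KO and WT it was -0.01 (-2.69 to 2.36) after DPBS and -0.32 (-1.27 to 0.58) after papain in CD4 cells, and -0.42 (-2.64 to 1.56) and -0.00 (-2.05 to 1.97) in gamma-delta cells. The intervals in gamma-delta cells, which rest on 4 to 7 IL-17 cells a library, are so wide that changes of several fold in either direction were not detectable at this depth.

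The UMIs were spread over the lineages differently from the cells. Gamma-delta cells held 64.7%, 28.9%, 4.13% and 7.09% of all Il17a and Il17f UMIs, and CD4 cells 10.5%, 21.8%, 70.4% and 55.1%. One cell decided several of these values. Without its gamma-delta cell of 67 UMIs, DPBS WT had 28.8% in gamma-delta and 21.2% in CD4 cells. Without its CD4 cell of 29 UMIs, DPBS KO had 1.77% in CD4 cells. The top cell of Papain WT, an alpha-beta T cell of 151 UMIs without a Cd4 or Cd8 UMI, also met phagocyte markers. Without it the CD4 value was 85.2%, and without the CD4 cell of 74 UMIs that of Papain KO was 46.0%.

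The next cells by output are given as pairs of Il17a and Il17f UMIs. In DPBS WT the 5 gamma-delta cells with 2 or more UMIs had 66 and 1, 4 and 3, 3 and 1, 4 and 0, and 1 and 1. In DPBS KO the 3 such gamma-delta cells had 20 and 0, 18 and 0, and 1 and 1. In Papain WT they had 19 and 0 (in a cell that also met B cell and phagocyte markers), 6 and 1, and 0 and 7, and in Papain KO 12 and 0, 6 and 2, 5 and 0, 4 and 0, and 2 and 0. Il17a made up 92.9%, 97.5%, 75.8% and 93.5% of the UMIs of both cytokines in these cells. Over all gamma-delta cells of DPBS WT it made up 91.9%, and 68.4% (43.4 to 87.4) without the cell of 67 UMIs.

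CD4 cells with high output appeared almost solely in the papain libraries. Papain WT had 25 CD4 cells with 2 or more UMIs and Papain KO 13, against 3 and 1 in DPBS WT and DPBS KO. The median over these cells was 12 UMIs in Papain WT (2 to 113) and 8 in Papain KO (2 to 74). The highest pairs were 56 and 57, 31 and 40, and 52 and 4 in Papain WT, and 73 and 1, 12 and 28, and 19 and 11 in Papain KO. Il17a made up 63.7% (59.7 to 67.5) of the UMIs of CD4 cells in Papain WT. In Papain KO it made up 74.7% (68.7 to 80.1), and 64.1% without the cell of 74 UMIs.

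Of the cells with 2 or more UMIs, 6 of 42 CD4 and 3 of 16 gamma-delta cells also met B cell or phagocyte markers, and their part in the shares of cells with both cytokines or with a receptor was not tested. Both cytokines were found together in 26 of 42 CD4 cells with 2 or more UMIs (61.9%, 45.6 to 76.4) and in 7 of 16 gamma-delta cells (43.8%, 19.8 to 70.1). Of the rest, 11 CD4 cells had Il17a alone and 5 had Il17f alone, against 8 and 1 of the gamma-delta cells. Cells of 1 library share their source, and these 2 shares have overlapping intervals. The papain libraries gave 38 of the 42 CD4 but 8 of the 16 gamma-delta cells, so a contrast of these lineages over all libraries also mixes the treatments.

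**Figure D2:**
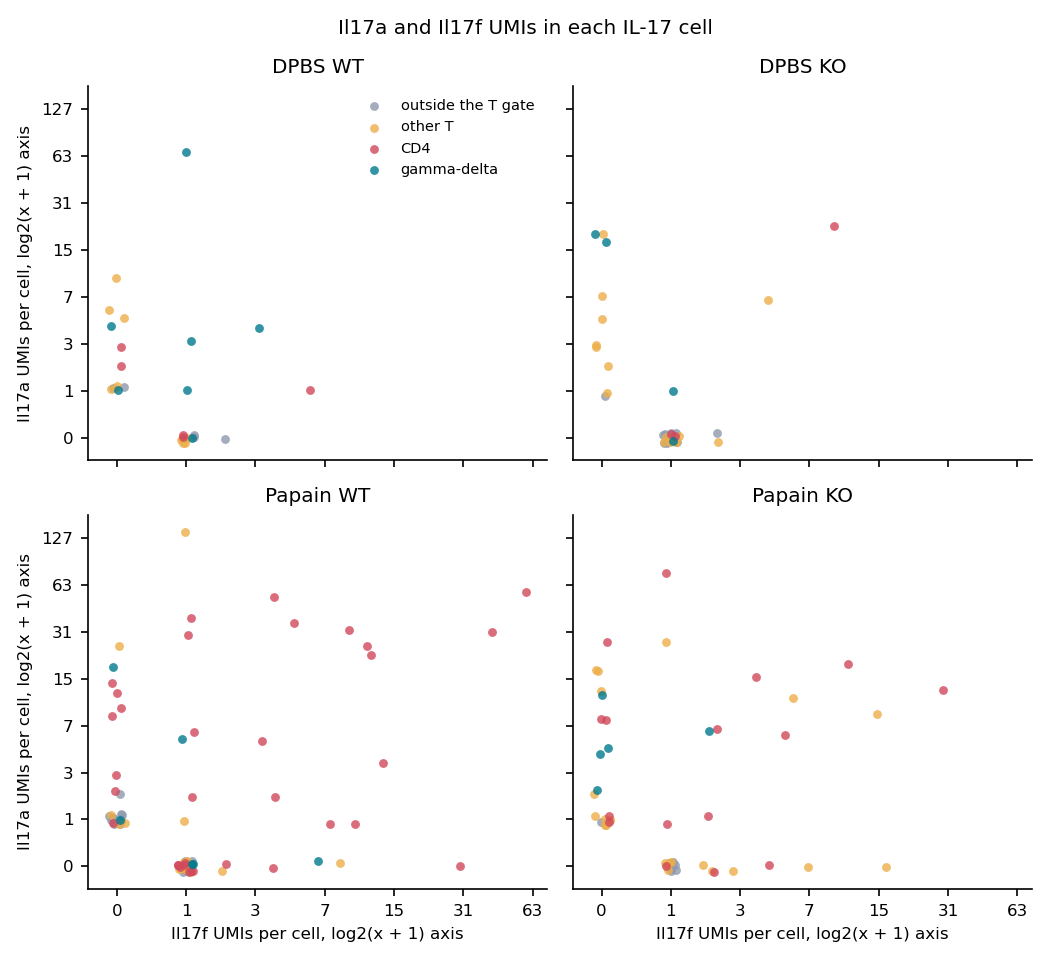
Il17a UMIs (y axis) against Il17f UMIs (x axis) of each IL-17 cell, 1 panel per library, both axes as log2 of the UMIs plus 1 with ticks at raw UMIs and points spread slightly to show ties; colours give the lineage. CD4 cells with many UMIs of both genes appear in the papain panels, and most gamma-delta cells lie at 0 or 1 on the Il17f axis.

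Il22, the third cytokine, was counted mostly in papain libraries and in T cells. It had 11 UMIs in 2 cells, 25 in 2, 118 in 27 and 106 in 14 cells, or 0.165, 0.483, 1.80 and 2.15 CPM. A single cell held 10 of the 11 UMIs of DPBS WT, 24 of 25 in DPBS KO and 59 of 106 in Papain KO. Of the 45 cells, 42 were T cells, 31 CD4 cells and 1 a gamma-delta cell. CD4 cells held 165 of the UMIs, and T cells with UMIs of several lineages or of none held 65. IL-17 cells were 24 of the 45 and held 192 of the 260 Il22 UMIs.

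Among cells with 2 or more Il17a and Il17f UMIs, 15 of 42 CD4 cells (35.7%, 21.6 to 52.0) and 0 of 16 gamma-delta cells (0 to 20.6) had an Il22 UMI. In the papain libraries alone these were 15 of 38 (39.5%, 24.0 to 56.6) and 0 of 8 (0 to 36.9), with overlapping intervals. In these CD4 cells Il22 was found in 11 of 25 cells of Papain WT and 4 of 13 of Papain KO. The cell with the most Il22, 59 UMIs beside 15 of Il17f and 0 of Il17a, was a T cell of Papain KO with 2 Cd4 UMIs and 1 Cd8b1 UMI and so fell outside the CD4 gate. Il22 has a near-identical neighbour, Iltifb, to which reads can be assigned in part. Iltifb had 1, 0, 23 and 22 UMIs, and 11 of its 13 cells in Papain WT and 2 of its 6 in Papain KO also had Il22. The log2 ratio of papain to DPBS for Il22 was 3.45 (2.56 to 4.49) in WT and 2.15 (1.51 to 2.84) in KO, and between the papain libraries KO over WT was 0.26 (-0.14 to 0.65).

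The receptors were not particular to IL-17 cells and came from different classes. Ccr6 had the highest counts of the 7 genes, with 526, 331, 877 and 628 UMIs, and 80.8% of these were in B cells. Of all B cells, 19.3% had a Ccr6 UMI, by library 16.1%, 15.5%, 22.8% and 22.3%. CD4 cells had one in 1.39%, 0.837%, 6.16% and 4.82% of cells, that is 11, 4, 61 and 28 cells. Ccr6 in T cells was thus higher after papain, by 2.16 (1.64 to 2.71) on the log2 scale for WT mice and by 1.55 (0.86 to 2.30) for KO mice.

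Il1r1, the signalling receptor for IL-1, had 75, 63, 140 and 56 UMIs. Phagocytes held 38.0% of them and CD4 cells 22.2%. The CD4 part stood out in Papain WT, where 31 cells (3.13%, 2.14 to 4.41) had an Il1r1 UMI. Papain KO had 7 such cells (1.20%, 0.486 to 2.47), DPBS WT 3 (0.378%) and DPBS KO 1 (0.209%). In phagocytes the shares were 2.04%, 1.82%, 1.63% and 1.36%. In T cells the log2 ratio of papain to DPBS was 2.02 (1.28 to 2.82) in WT and -0.17 (-1.15 to 0.82) in KO.

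Il17re, the chain for IL-17C, had 46, 52, 79 and 61 UMIs, in 36, 35, 49 and 38 cells. CD4 cells held 37.8% of its UMIs and phagocytes 18.9%, mostly as single UMIs in deep cells. Of gamma-delta cells 4.60% had an Il17re UMI, and of CD4 cells 1.65%. By library the CD4 cells with a UMI were 6, 3, 23 and 15.

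Il23r, the receptor chain for IL-23, had the fewest UMIs over all libraries, with 14, 15, 12 and 18 UMIs in 10, 11, 10 and 14 cells. Gamma-delta cells held 32.2% of its UMIs although they were a small class, and 5.36% of them had a UMI against 0.422% of CD4 cells. Its log2 ratio of papain to DPBS over all cells was -0.20 (-1.44 to 1.02) in WT and 0.33 (-0.74 to 1.42) in KO, and both intervals include 0.

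**Figure D3:**
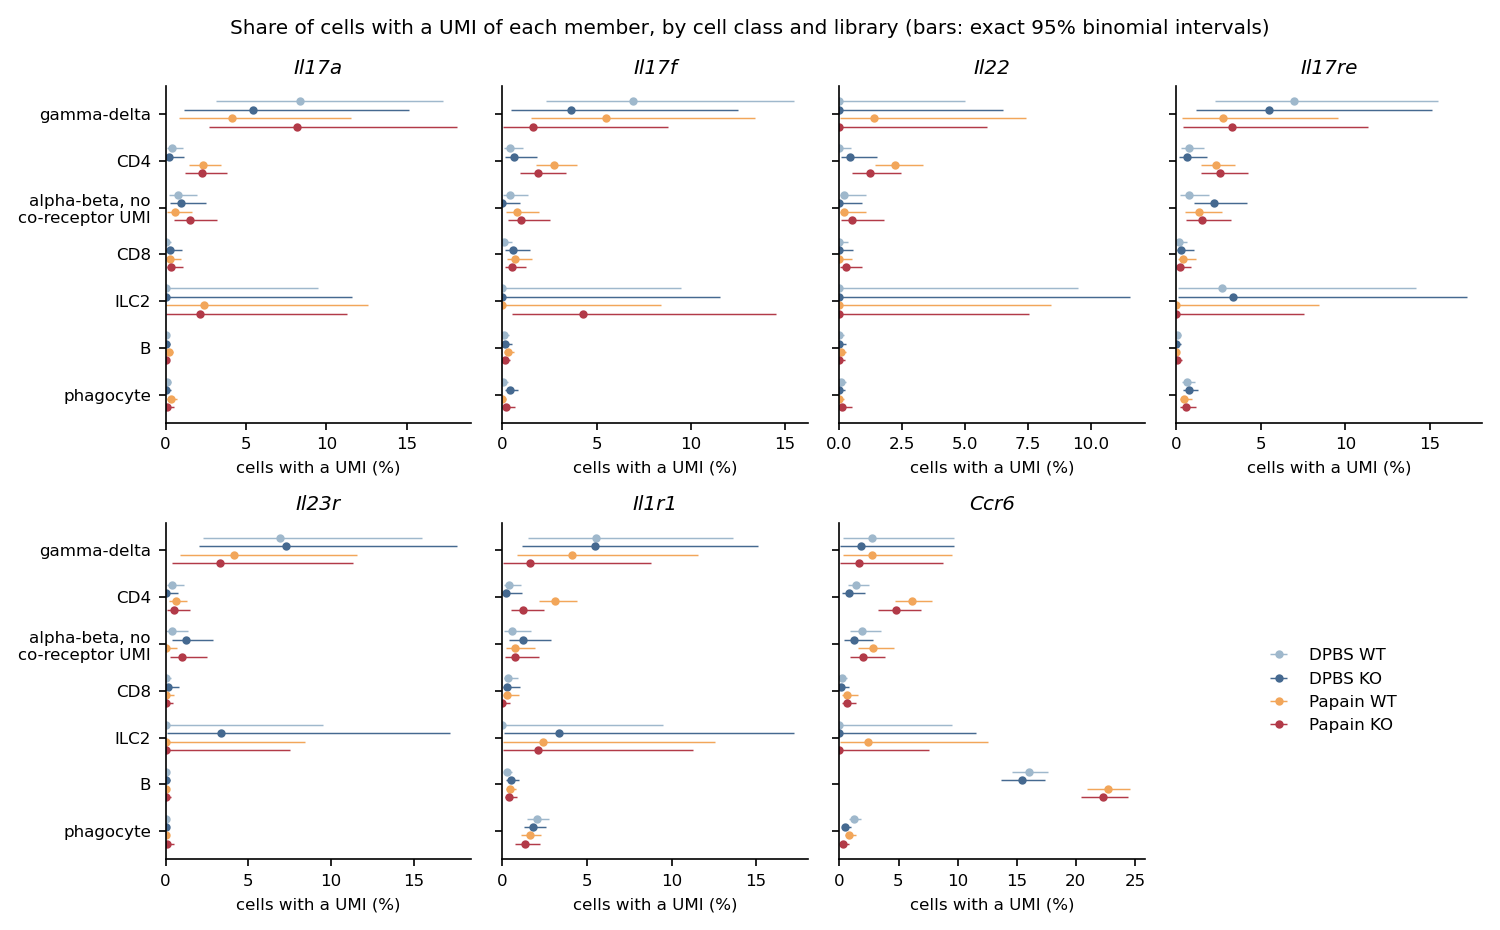
Percent of cells with a UMI (x axis) of each member, 1 panel per gene, by cell class (y axis) and library (colour), with exact 95% binomial intervals. Il17a and Il23r are most frequent in gamma-delta cells in every library, with wide intervals, and Ccr6 reaches 15.5% to 22.8% in B cells. CD4 cells gain Il17a, Il17f, Il22, Il17re and Ccr6 in the papain libraries, and Il1r1 mainly in Papain WT.

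Receptors and cytokines met in the same cells. Of the 86 T cells with 2 or more Il17a and Il17f UMIs in all libraries together, 44 had an Il17re UMI (51.2%, against 0.608% of T cells without Il17a or Il17f), 38 Ccr6 (44.2% against 1.59%), 32 Il1r1 (37.2% against 0.511%) and 20 Il23r (23.3% against 0.217%). At least 1 of the 4 receptors was found in 66 of the 86 cells (76.7%), at least 2 in 47, and all 4 in 2. The same held for 211 of the 9206 other T cells (2.29%), 47 and 1. By library at least 1 receptor was found in 8 of 11, 10 of 12, 27 of 33 and 21 of 30 cells.

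IL-17 cells were deeper than other T cells, which raises the chance of seeing any gene. Median depths of the T cells with 2 or more UMIs were 6816, 8293, 9531 and 9866 UMIs, against 5910, 6558, 6510 and 7223 in T cells without Il17a or Il17f. Thinned to 2000 UMIs per cell, Il17re was found in 12.9% against 0.263%, Ccr6 in 16.5% against 0.427%, Il1r1 in 10.6% against 0.131% and Il23r in 7.06% against 0.0657%. Of the 86 cells, 13 held more than 20000 UMIs, and without them 55 of 73 (75.3%, 63.9 to 84.7) had at least 1 receptor.

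Read the other way, 52 of 108 T cells with Il17re were IL-17 cells (48.1%, 38.4 to 58.0), as were 22 of 42 with Il23r (52.4%, 36.4 to 68.0), 41 of 88 with Il1r1 (46.6%, 35.9 to 57.5) and 46 of 192 with Ccr6 (24.0%, 18.1 to 30.6). Ccr6 was thus the least selective of the 4 receptors for Il17a and Il17f among T cells.

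The receptors were also compared between lineages and between the papain libraries, with no test. Il23r was found in 8 of 16 gamma-delta cells (50%, 24.7 to 75.3) and 6 of 42 CD4 cells (14.3%, 5.43 to 28.5). In the papain libraries alone Il23r was found in 3 of 8 (37.5%, 8.52 to 75.5) and 5 of 38 (13.2%, 4.41 to 28.1). Ccr6 was found in 4 of 16 gamma-delta (25.0%, 7.27 to 52.4) and 25 of 42 CD4 cells (59.5%, 43.3 to 74.4). In the papain libraries alone Ccr6 was found in 2 of 8 (25.0%, 3.19 to 65.1) and 24 of 38 (63.2%, 46.0 to 78.2). Il1r1 was found in 16 of the 25 CD4 cells of Papain WT (64.0%, 42.5 to 82.0) and 2 of the 13 of Papain KO (15.4%, 1.92 to 45.4), whereas Il17re was found in 9 of 25 (36.0%, 18 to 57.5) and 8 of 13 (61.5%, 31.6 to 86.1). These pairs were named after their values were seen, and the intervals of each pair overlap.

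The regulators of the type 17 programme were compared in the same cells, as the share of cells with a UMI in the 42 CD4 and 16 gamma-delta cells with 2 or more Il17a and Il17f UMIs. Shares here and in the next paragraphs on listed genes are at full depth, with medians of 9586.5 UMIs in these CD4 and 7113.5 in these gamma-delta cells. Depth and the mix of treatments differ between the groups compared, and their part in these shares was not tested. Rora, a nuclear receptor, was found in 97.6% of the CD4 and 100% of the gamma-delta cells, against 25.9% and 33.5% of cells of the same lineage without Il17a or Il17f, and Maf, a factor that directs cytokine genes, in 100% and 93.8% (against 25.7% and 25.9%). Ahr, the aryl hydrocarbon receptor that Il22 depends on, was found in 54.8% of the CD4 cells against 11.7%, and in 31.2% of the gamma-delta cells against 27.2%. Blk, Zbtb16 and Sox13, factors known from innate-like gamma-delta cells, differed between these 2 lineages. They were found in 75.0%, 50% and 31.2% of the gamma-delta cells and in 2.38%, 0% and 0% of the CD4 cells. They were not confined to the gamma-delta gate. Of all 86 T cells with 2 or more UMIs, 26 had Blk, of which 12 were gamma-delta and 1 CD4. Zbtb16 was found in 17, of which 8 were gamma-delta and 0 CD4. The rest were other T cells, whose lineage was not tested.

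Genes reported for gamma-delta cells that make IL-17 were partly shared. Tmem176a and Tmem176b, membrane proteins of unsettled role, were found in 92.9% and 95.2% of the CD4 and 93.8% and 100% of the gamma-delta cells, against 5.28% and 5.71%, and 9.62% and 10.5%, of cells of the same lineage without the cytokines. Cxcr6, a homing receptor of tissue T cells, was found in 83.3% and 93.8% (against 8.26% and 15.9%) and Serpinb1a, a protease inhibitor, in 57.1% and 81.2% (against 4.42% and 5.02%). Cd163l1 was found in 68.8% of the gamma-delta but 9.52% of the CD4 cells, and Trdv4, a variable segment of the delta chain, in 31.2% and 0%. Tcrg-V6 was found in 12.5% and 2.38% and Tcrg-V4 in 0% of both. Variable segments are seldom reached by counting from the 3′ end, so a low share does not give the receptor type.

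Genes of activated and naive cells were read in the same way. Icos, a costimulator, was found in 95.2% of CD4 and 81.2% of gamma-delta IL-17 cells (against 45.5% and 28.0%), and Cd44, a marker of experienced cells, in 92.9% and 87.5% (against 28.9% and 29.7%). Tnfrsf4, which encodes OX40, was found in 73.8% of the CD4 and 0% of the gamma-delta cells (against 22% and 5.02%), and Ctla4, an inhibitory receptor, in 78.6% and 31.2% (against 21.9% and 12.6%). By library Tnfrsf4 was found in 21 of 25 CD4 IL-17 cells of Papain WT (against 29.7%) and 6 of 13 of Papain KO (against 20.4%). The intervals of these shares, 63.9 to 95.5 and 19.2 to 74.9, overlap. Il2ra, a chain of the IL-2 receptor, was found in 62.5% of the gamma-delta and 16.7% of the CD4 cells (against 6.28% and 7.97%). Mki67, a gene of dividing cells, was found in 28.6% of the CD4 cells (against 6.68%) and 0% of the gamma-delta cells (against 2.93%). The CD4 value rests on Papain WT, with 10 of 25 cells, and was 11.8% (2 of 17) without that library. Ccr7, which guides naive cells to lymph nodes, was found in 35.7% of the CD4 cells (against 77.5%) and in 25.0% of the gamma-delta cells (against 51.0%). Lef1, a factor of naive T cells, was found in 57.1% of the CD4 cells (against 84.0%) and 25.0% of the gamma-delta cells (against 72.0%). S1pr1, which lets cells leave lymphoid tissue, was found in 83.3% of the CD4 cells (against 71.9%) and 31.2% of the gamma-delta cells (against 62.3%).

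Genes of other T cell programmes differed among themselves. Il4, Il5 and Il13, the type 2 cytokines, were found in 0 of the 42 CD4 cells and 0 of the 16 gamma-delta cells, and Ifng, the type 1 cytokine, in 4.76% and 0%. Among gamma-delta cells without Il17a or Il17f, 65.3% had Nkg7, a gene of cytotoxic granules, and 15.9% had Ifng, against 0% and 0% of those with them. Foxp3, the factor of regulatory T cells, was found in 7.14% of the CD4 cells, against 7.32% of CD4 cells without the cytokines. Gata3, the factor of type 2 cells, was found in 59.5% of them, against 34.5%.

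**Figure D4:**
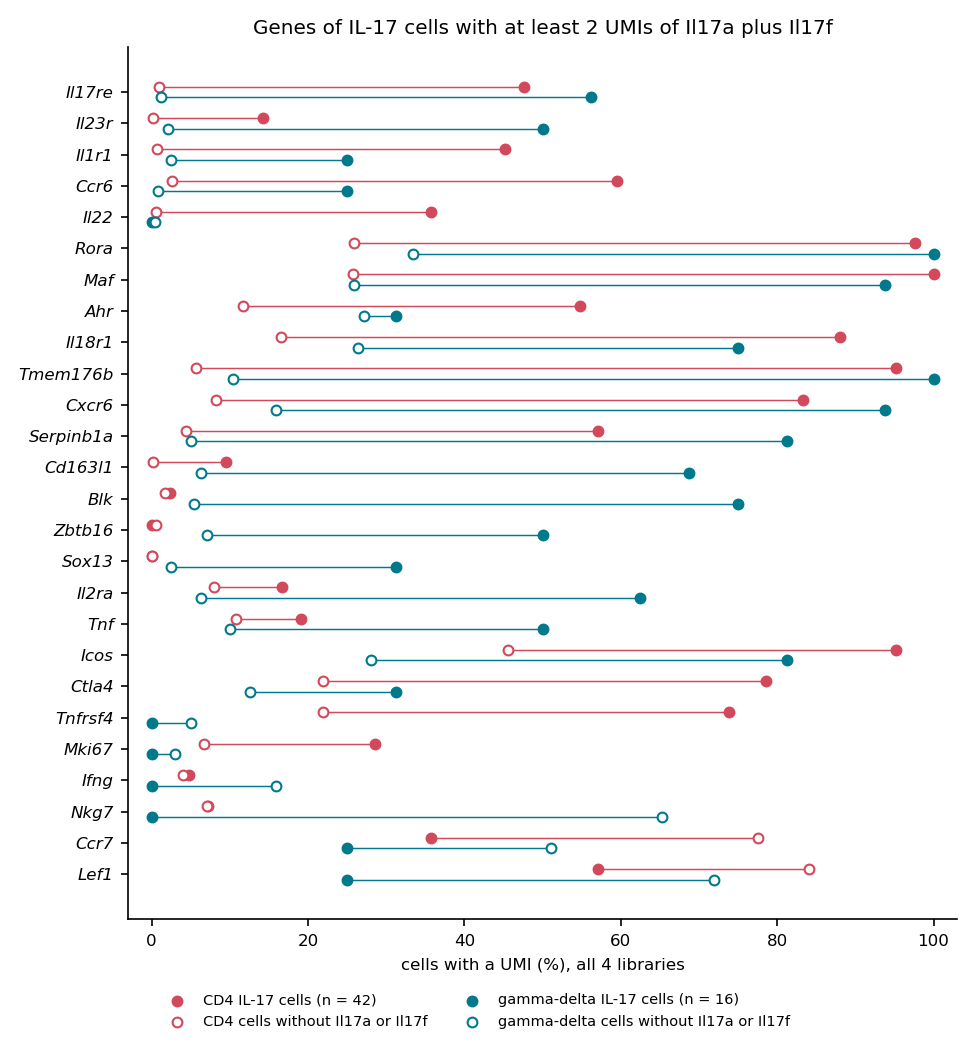
Percent of cells with a UMI (x axis) of listed genes (y axis) in IL-17 cells with at least 2 UMIs (filled points) and in cells of the same lineage without Il17a or Il17f (open points), for CD4 (42 IL-17 cells) and gamma-delta cells (16 IL-17 cells) of all 4 libraries. Most receptors and regulators lie far to the right in both lineages, Blk, Zbtb16, Sox13 and Cd163l1 do so for gamma-delta cells and Tnfrsf4 and Mki67 for CD4 cells, and Ccr7 and Lef1 lie to the left.

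Beyond the lists, genes whose pattern was most like that of Il17a and Il17f were sought among all T cells of the papain libraries. The measure was the difference, in percentage points and at 2000 UMIs per cell, between the shares of IL-17 cells (56 in Papain WT and 44 in Papain KO) and other T cells with a UMI, averaged over both libraries. S100a4, S100a6 and S100a11, calcium-binding proteins of effector cells, differed by 59.4, 53.5 and 42.4 points, and Lgals1, which encodes galectin-1, by 48.9. Capg, an actin-capping protein, differed by 45.5, Tmem176b by 43.5, Tmem176a by 43.0, Rora by 42.3, Odc1, the first enzyme of polyamine synthesis, by 41.2, and Icos by 36.9. In Papain WT, S100a4 was found in 73.2% of IL-17 cells and 16.4% of other T cells, and in Papain KO in 72.7% and 10.8%.

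Between gamma-delta and CD4 IL-17 cells of the papain libraries (6 and 5 against 33 and 16 cells), the largest differences were in Trdc, at 91.7 points, which the gate used, and in Trac, at -60.6 points. Next came Selenop at 55.9, Dennd4a at 54.9, Eif3a at 52.7, Tcrg-C1 at 52.1 and Scand1 at 51.1 points, higher in gamma-delta cells, and Fyb at -52.7, Lck at -52.2 and Uqcrh at -50.2, higher in CD4 cells. With so few gamma-delta cells, 1 cell moves these values by many points. Across 48 points of cell class and library, of which 30 had no Il17a UMI, the genes with the highest rank correlation with the share of cells with Il17a were Trat1 (0.76), Cd3g (0.75), Tcrg-C2 (0.75), Sox4 (0.75) and Kbtbd11 (0.74). Il17re gave 0.60, Il1r1 0.50, Il17f 0.37 and Ccr6 0.24. The points share libraries and class definitions, and the leading genes are broad T cell genes.

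Ift20, the targeted gene, was checked in the lineages that hold these cytokines. In CD4 cells its CPM was 59.2, 21.1, 64.3 and 22, a log2 ratio of KO to WT of -1.49 (-1.88 to -1.11) after DPBS and -1.55 (-1.86 to -1.25) after papain. The libraries count the 3′ end, which need not lie in the deleted part of the gene. In gamma-delta cells it was 91.3, 65.8, 59.5 and 43.7, with ratios of -0.47 (-1.23 to 0.27) and -0.45 (-1.30 to 0.38), whose intervals include 0. In B cells the ratio of KO to WT was -0.45 (-0.68 to -0.22) after DPBS and 0.24 (0.06 to 0.42) after papain. A ratio of the size seen in gamma-delta cells was thus also seen in B cells after DPBS, and its source was not tested. Among CD4 IL-17 cells after papain Ift20 had 41 UMIs, in 25 of 34 cells of WT, and 2 UMIs, in 2 of 16 cells of KO, a log2 ratio of -2.56 (-5.65 to -0.61). Among gamma-delta IL-17 cells it had 6 UMIs in 5 of 6 cells of WT and 4 UMIs in 3 of 5 cells of KO.

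The members and related genes, 55 in all, of which 43 to 45 could be tested in each comparison, were then compared over the summed UMIs of all T cells, where a gene with at least 20 UMIs in both libraries together was called when its CPM differed 2-fold or more. In such sums fewer cells of a type and less RNA per cell cannot be told apart. The mix of T cells differed between libraries, with 1128, 688, 735 and 819 CD8 cells beside the CD4 cells given above, and its part in the ratios was not tested. From DPBS WT to Papain WT, 6 of the 7 members were called higher, all but Il23r, and 0 lower, where 3.98% of the 12643 genes tested were called higher and 1.16% lower. From DPBS KO to Papain KO, Il17a, Il17f, Il22 and Ccr6 were called higher and 0 members lower, against 2.50% and 1.18% of 12172 genes. These contrasts entered the choice of the members, and nothing is read from their counts.

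The genotypes were compared within each treatment. After DPBS 1 member, Il22, was called higher in KO, on 25 UMIs of which 24 came from 1 cell, and 0 were called lower, against 1.10% and 2.30% of 12234 genes. After papain 0 members were called higher and 1, Il1r1, lower, against 1.00% and 2.64% of 12588 genes. Il1r1 fell from 3.73 to 1.15 CPM in T cells, a log2 ratio of -1.69 (-2.46 to -0.99). Il17a and Il17f, with ratios of -0.67 (-0.87 to -0.47) and -0.84 (-1.17 to -0.52), did not reach the 2-fold limit.

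Of the related genes, 8 were called higher from DPBS WT to Papain WT. They were the regulators Rora (1.77), Maf (1.30) and Irf4 (1.07), the cytokines Csf2 (1.99), which encodes GM-CSF, and Areg (2.43), an epidermal growth factor ligand, the receptor chains Il17rb (2.18), for IL-25, and Il17rc (1.62), for IL-17A and IL-17F, and Cxcr6 (1.14), all as log2 ratios. In KO, Csf2 (1.01) and Trdv4 (1.19) were called higher, and 0 related genes were called lower in either genotype. With TMM scaling 13 and 5 of the listed genes were called higher in WT and KO (29.5% and 11.4% of those tested, against 3.43% and 2.33% of all genes). Irf4 in WT (0.997) and Csf2 in KO (0.965) were then just under the limit. After papain Rora (-1.20), Csf2 (-1.21), Areg (-1.86), Il17rb (-1.91) and Il17rc (-1.25) were called lower in KO than in WT, and Trdv4 (1.44) and Cd163l1 (1.20) higher. Rora, Areg and Il17rb are also genes of type 2 T cells. Over the genes tested, 44, 44, 43 and 45 of the 55, the median log2 ratio was 0.51 and 0.26 for papain over DPBS in WT and KO, and 0.01 and -0.26 for KO over WT after DPBS and papain, where the medians of all genes were 0.07, 0.03, -0.04 and -0.08.

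**Figure D5:**
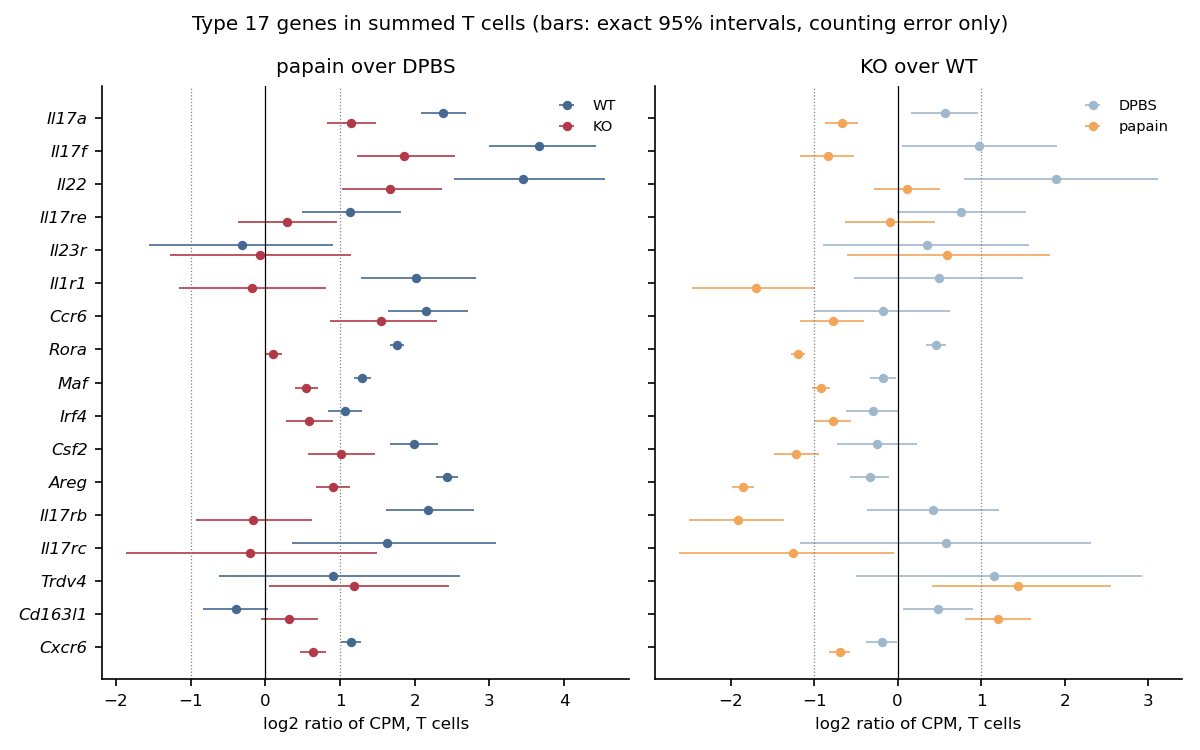
Log2 ratio of CPM in summed T cells (x axis) for the members and the related genes called in any comparison (y axis), papain over DPBS on the left and KO over WT on the right, with exact 95% counting intervals and dotted lines at the 2-fold limit. Papain ratios in WT exceed 1 for most of these genes and those in KO are lower for most, and Il1r1, Rora, Csf2, Areg, Il17rb and Il17rc lie below -1 for KO over WT after papain.

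The cytokines that act on type 17 cells came from other cells of the same libraries. Il1b, which signals through IL1R1, had 399, 349, 763 and 685 CPM, with 51.0% to 65.9% of its UMIs in phagocytes. Il6, which starts Th17 development with TGF-β, had 9.95, 7.84, 30.3 and 15.5 CPM, with 80.4% to 86.0% in phagocytes. Il23a, the specific chain of IL-23, had 1.47, 2.22, 2.17 and 2.45 CPM, with 48.8% to 65.2% in phagocytes. Il12b, its other chain, had 1.5, 3.21, 7.91 and 1.38 CPM, with 79.0%, 95.8%, 50.6% and 22.1% in cells that met no class. Of the other ligands of the IL-17 family, Il17b and Il25 had 0 UMIs in every library, which allows up to 3 counts each, Il17c, the ligand of IL17RE, had 3, 0, 1 and 2, and Il17d had 82, 102, 28 and 27, mostly in phagocytes. Lcn2, an IL-17 target made by neutrophils among other cells, had 7.50, 5.95, 23.7 and 20.4 CPM, beside 91, 94, 295 and 187 neutrophils. Il17ra, the shared receptor chain, had 107 to 122 CPM, mainly in phagocytes. Epithelium and stroma, the main targets of IL-17, were not in the sort.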

How the data were processed

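Droplet 3′ single-cell libraries were made from sorted lung CD45.2+ cells of 4 groups, 1 library each. The authors aligned reads with Cell Ranger (software version 3.1.0 in the file header) to mm10, and the deposited values are raw UMI counts per gene and barcode, not normalized. Barcodes with more than 200 genes and under 15% mitochondrial UMIs were kept, and the highest Scrublet doublet scores were removed at 0.8% per 1000 barcodes (585, 283, 570 and 275 barcodes), since the threshold of the caller marked only 1 in Papain KO. This left 25831 of 28805 barcodes and 49316560 to 66625724 UMIs per library.

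Each cell was gated on its own UMIs. A T cell needed a Cd3d, Cd3e or Cd3g UMI and 2 UMIs over the T markers and Trdc, and a B cell needed 2 markers and an ILC2 3. Gating on UMIs of a shallow cell misses cells and splits lineages. CPM was computed here as UMIs per 1000000 over the cells summed. Shares carry exact Clopper-Pearson, CPM exact Poisson and log2 ratios exact conditional binomial 95% intervals, which cover counting error only. For comparisons across depth each cell was thinned to 2000 UMIs, which left out 591 shallower cells. Folds were taken over summed T cells for genes with at least 20 UMIs in both libraries together, with a prior count of 0.5, a limit of 1 on the log2 scale and no test. The fold computation was checked on simulated counts with known changes. Alternatives were a cut of 2 UMIs, other gates, no filters, the mean of per-cell CPM, edgeR TMM scaling and minimums of 0 and 50 UMIs.

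The members, the gene lists, the markers and the comparisons were chosen with earlier results of these data known. Named genes were the members, the listed genes, the 10 genes most like Il17a and Il17f in each contrast and the 5 with the highest rank correlation, except where the text says otherwise, and a few listed genes are not reported here. Gene positions are from GRCm38 with GENCODE M21 and promoters from RefSeq, where all 7 members matched. Versions were Python 3.11.15, scanpy 1.11.5, numpy 2.4.6, scipy 1.17.1, pandas 2.3.3, R 4.3.3 and edgeR 4.0.16.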

Additional observations from a re-analysis of the deposited data

Results flagged for a closer look

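Il17a and Il17f differed between KO and WT in opposite directions under the 2 treatments. In summed T cells the log2 ratio of KO to WT for Il17a was 0.56 (0.16 to 0.96) after DPBS and -0.67 (-0.87 to -0.47) after papain, and for Il17f 0.97 (0.05 to 1.91) and -0.84 (-1.17 to -0.52). Over all cells the ratio for Il17f was 0.91 (0.12 to 1.72) and -0.67 (-0.99 to -0.36). Each group was 1 library, and the difference between treatments was not tested. Not every setting kept this pattern. With all deposited barcodes the Il17f ratio after DPBS was 0.24 (-0.44 to 0.91), without the cell richest in Il17f its interval was -0.03 to 1.85, and as the mean of per-cell CPM the Il17a ratio after papain was 0.0455. Single cells held a large part of these UMIs, 66 of the 109 Il17a UMIs in DPBS WT and 150 of the 608 in Papain WT.

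Barcodes removed by the filters also held Il17a and Il17f. In Papain WT the 1020 removed barcodes had 123 UMIs, or 13.6 CPM (11.3 to 16.3), in 15 barcodes of which 12 met the T gate, and 1 barcode held 60. The removed barcodes of DPBS WT had 26 UMIs, or 2.87 CPM (1.88 to 4.21). The kept cells of the same libraries had 13.3 and 2.0 CPM. In the KO libraries the removed barcodes were lower than the kept cells, at 0.428 (0.0519 to 1.55) against 2.74 CPM after DPBS and 1.32 (0.485 to 2.88) against 8.86 CPM after papain.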

How the results depend on the processing

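Of 200 recomputed values, 160 moved by less than their counting interval or, for counts of genes, by under 1.5 times, 39 moved by more and 1 reversed. For each, unless named, the cause was not tested. The log2 ratio of Il17a in Papain KO over Papain WT was 0.0455 as the mean of per-cell CPM, against -0.55. A cut of 2 UMIs gave IL-17 cell shares of 0.159%, 0.240%, 0.458% and 0.553%, and thinning 0.162%, 0.227%, 0.530% and 0.466%, since both count fewer cells. The cut of 2 gave a CD4 share of IL-17 cells of 73.5% in Papain WT. Counting any T cell with Trdc gave a gamma-delta share of 21.2% in Papain KO, and counting Trac cells without Trdc or Cd8 UMIs as CD4 gave CD4 shares of 40.7% in DPBS WT and 46.2% in Papain KO.

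The next alternatives were chosen after seeing the data. Without cells that held B cell or phagocyte markers the IL-17 cell share was 0.350% in DPBS KO and 0.768% in Papain WT, and the CD4 share 56.1% in Papain WT. Without the top cell of each library gamma-delta cells held 28.8% of the Il17a and Il17f UMIs in DPBS WT, and CD4 cells 21.2%, 1.77%, 85.2% and 46.0%. The same step gave Il17a ratios of 3.44 for Papain WT over DPBS WT and 1.38 for DPBS KO over DPBS WT, and Il22 ratios of 6.4 and 5.62 for papain over DPBS in WT and KO and 0.36 and -0.41 for KO over WT after DPBS and papain. It left 1 Il22 UMI in each DPBS library, so every Il22 ratio that involves DPBS rests on 1 UMI there.

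Per-cell CPM gave papain ratios of 1.56 for Il17a in WT, 1.5 for Il22 in KO, and 0.36 and 0.54 for Ccr6 in WT and KO. All deposited barcodes gave 2.73 for Il17f in Papain WT over DPBS WT. With no UMI minimum more genes enter, and the type 17 genes called are given with their share against that of all genes. They were 2 lower (3.77% against 8.42%) from DPBS WT to Papain WT. From DPBS KO to Papain KO they were 10 higher (18.9% against 12.9%) and 1 lower (1.89% against 8.66%). In KO after DPBS they were 4 higher (7.69% against 8.98%) and 3 lower (5.77% against 12.4%). In KO after papain they were 6 higher (11.3% against 9.84%). With 50 UMIs they were 0 and 1 higher in KO after DPBS and papain (0% against 0.512% and 2.38% against 0.337%). No paired analysis was possible because each group was 1 library, and leaving out a replicate gave no value for the same reason. Gamma-delta results rest on 4 to 7 IL-17 cells a library.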
